A study of Mus musculus with 2 samples.

Results

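The miR-17-92 and miR-106b-25 clusters are groups of microRNA (miRNA) genes whose hairpins lie side by side in 1 transcript each. They were examined here in microRNA-seq of adrenal glands from female B6CASTF1/J mice aged 36 days. The genes were taken by their GENCODE M21 names, and all 9 were present among the 2202 miRNA genes of the deposited tables. Mir17, Mir18, Mir19a, Mir20a, Mir19b-1 and Mir92-1 form the first cluster, and Mir106b, Mir93 and Mir25 form the second. B6CASTF1/J mice are first-generation hybrids of a laboratory strain and a wild-derived strain, and the labels name the gland with no separation of cortex and medulla. The study had 1 group of 2 libraries, numbered as biological replicates 1 and 2, with no second age, sex, treatment or tissue. The labels describe separately numbered females but list 1 donor identifier for both, so whether the spread between the libraries is one between animals is not certain. Sense-strand reads of miRNA genes numbered 5397603 in replicate 1 and 3029977 in replicate 2. Levels are given in CPM, counts per 1000000 of these reads. A single count, 1 read, equalled 0.185 CPM in the deeper replicate 1 and 0.330 CPM in replicate 2. Brackets hold 95% intervals, which cover counting error only.

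A mature miRNA guides Argonaute proteins to messenger RNAs, mostly by pairing of its seed, bases 2 to 8 from the 5′ end, and lowers their stability and translation. The miR-17-92 cluster is activated by the growth regulators Myc and E2F and is known as an oncogene of B cells. Known targets of its miRNAs include Cdkn1a, an inhibitor of the cell cycle, and Bcl2l11, which promotes cell death. The miR-106b-25 cluster lies in an intron of Mcm7, a subunit of the helicase that opens DNA for replication. A further copy on the X chromosome, the miR-106a-363 cluster, carries relatives of both.

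The mature sequences fall into 4 seed families that cut across the clusters. They are shown because several results below are given by family. The sequences are from RefSeq on GRCm38.p6, where all 9 genes had an entry, and the seed is in capitals. In the miR-17 family, which both clusters carry, the mature forms are these.
miR-17-5p: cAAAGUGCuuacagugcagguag
miR-20a-5p: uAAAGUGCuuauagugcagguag
miR-93-5p: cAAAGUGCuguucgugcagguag
miR-106b-5p: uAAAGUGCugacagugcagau
Counted from 1 at the 5′ end, miR-20a-5p differs from miR-17-5p by C1U and C12U, and miR-93-5p differs from it by U10G, A11U, C12U and A13C. Over its 21 bases miR-106b-5p differs from miR-17-5p by C1U, U10G and G20A. The miR-18 and miR-19 families have members in the miR-17-92 cluster alone of the 2 clusters.
miR-18a-5p: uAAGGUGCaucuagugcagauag
miR-19a-3p: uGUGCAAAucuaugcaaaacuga
miR-19b-3p: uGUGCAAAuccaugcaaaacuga
The miR-19 forms differ by U11C, from miR-19a-3p to miR-19b-3p. The miR-25/92 family again has 1 member in each cluster.
miR-92a-3p: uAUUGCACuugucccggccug
miR-25-3p: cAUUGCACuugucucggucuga

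Reads with more than 1 mapping place were set aside in a summary entry and given to no gene, which touches 2 of the 9 genes. The whole of miR-92a-3p lies in the hairpins of Mir92-1 and of Mir92-2 on the X chromosome, and the longest stretch that these hairpins share is 22 bases. The whole of miR-19b-3p lies in Mir19b-1 and in Mir19b-2, with a shared stretch of 25 bases. A read inside such a stretch cannot be placed at 1 locus, so the counts of Mir92-1 and Mir19b-1 may leave out much of their main mature form. The share left out was not measured. The opposite arms do tell the loci apart, and they are shown for the miR-92a pair.
miR-92a-1-5p: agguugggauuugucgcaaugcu
miR-92a-2-5p: agguggggauugguggcauuac
The other 7 genes share no stretch of 20 bases with another annotated miRNA hairpin. Sequence outside annotated hairpins was not examined.

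Within the miR-17-92 transcript, levels ran from 3027 CPM (Mir17 in replicate 2) to 0.556 CPM (Mir19a in replicate 1). Mir93 was the highest, with 2956 CPM in replicate 1 and 3874 in replicate 2, and ranked 43 and 39 among the 2202 genes. Mir17 had 2528 and 3027 CPM, ranking 47 and 45, and Mir20a had 1121 and 1535 CPM. All 3 carry the miR-17 seed and were higher in replicate 2. Mir92-1 had 1063 and 496 CPM in replicates 1 and 2, and Mir106b, the remaining gene of the miR-17 seed, had 1163 and 295. Mir25 had 387 and 202 CPM, and Mir18 had 205 and 166. These 4 genes were higher in replicate 1 on this scale.

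The miR-19 genes, Mir19a and Mir19b-1, had almost no counted reads although they lie between abundant neighbours. miR-19 is known as the component of the cluster that promotes lymphoma in mice. Mir19a, with 3 counts in replicate 1 against 7 in replicate 2, stood at 0.556 CPM (Wilson interval 0.189 to 1.63) and 2.31 CPM (1.12 to 4.77). Mir19b-1 had 36 and 4 counts, or 6.67 CPM (4.82 to 9.23) and 1.32 CPM (0.513 to 3.39). Mir17, the first hairpin of the transcript, had 4548 times the counts of Mir19a in replicate 1 (exact interval 1556 to 22058) and 1310 times in replicate 2 (636 to 3260). The longest stretch that Mir19a has in common with another hairpin was 13 bases, but its mature form differs from miR-19b-3p by 1 base, and how such reads were placed is not known. For Mir19b-1 the copy on the X chromosome means that the level of miR-19b itself is not known from these counts.

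As means over both libraries the order was Mir93 at 3415 ± 649 CPM, Mir17 at 2778 ± 353, Mir20a at 1328 ± 292, Mir92-1 at 780 ± 401 and Mir106b at 729 ± 614 (SD, n = 2). Mir25 at 295 ± 131, Mir18 at 186 ± 28.1, Mir19b-1 at 3.99 ± 3.78 and Mir19a at 1.43 ± 1.24 CPM followed. Of the 8 steps in this order, 3 had ranges of the libraries that did not overlap, those from Mir17 to Mir20a, from Mir20a to Mir92-1 and from Mir18 to Mir19b-1. Mir20a was above Mir92-1 by only 1.05-fold in replicate 1, against 3.09-fold in replicate 2. In the others the ranges of the libraries overlapped, and the order of Mir92-1 with Mir106b and that of Mir19b-1 with Mir19a turned between the libraries. These are orders of read counts, and the yield of library preparation from each sequence is not known.

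**Figure D1:**
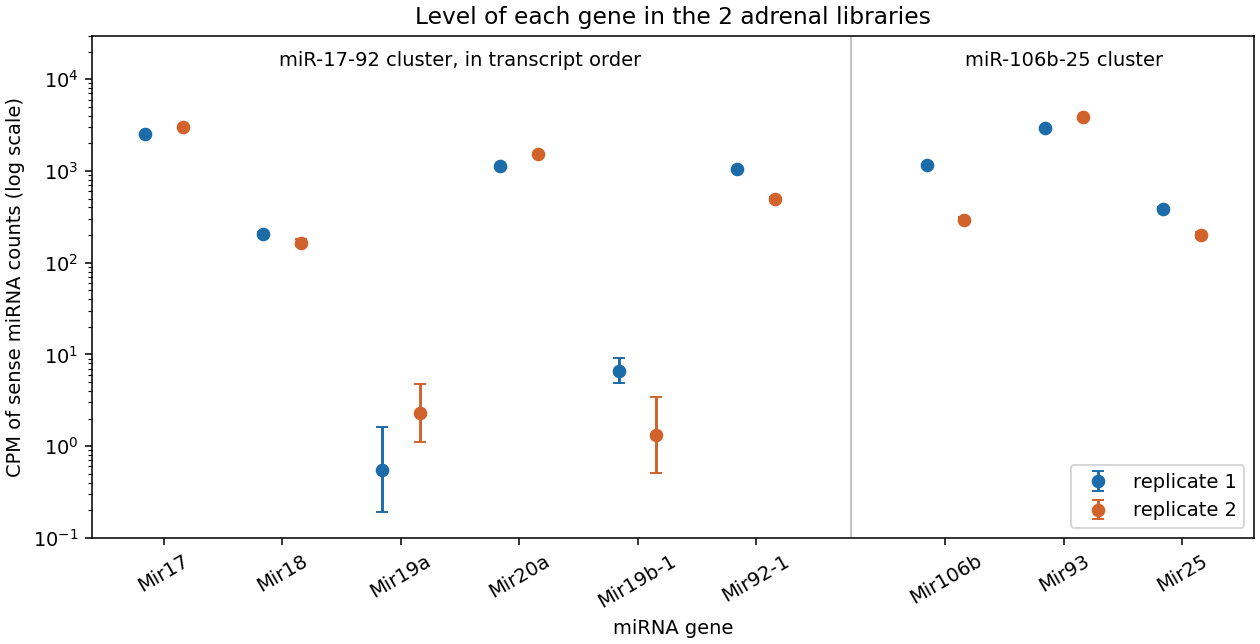
CPM on a log scale for the 9 genes in replicate 1 (left point of each pair) and replicate 2 (right point), with 95% Wilson intervals for counting error. Mir19a and Mir19b-1 lie below 10 CPM in both libraries, and the other 7 genes lie between 166 and 3874 CPM.

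By counted reads, the clusters as wholes were close in level. The miR-17-92 cluster (mm10, chr14:115043671-115044506, plus strand) spans 836 bases in exon 2, the last, of the long noncoding gene Mir17hg, by the GENCODE annotation. It held 0.492% of the sense miRNA counts in replicate 1 (Wilson interval 0.487 to 0.498%) and 0.523% in replicate 2 (0.515 to 0.531%). The miR-106b-25 cluster (chr5:138165321-138165818, minus strand) spans 498 bases in intron 13 of the Mcm7 transcript with 15 exons, and Mir93 and Mir25 also lie in an exon of a short Mcm7 transcript that retains the intron. It held 0.451% (0.445 to 0.456%) and 0.437% (0.430 to 0.445%). The ratio of the first sum to the second was 1.09 in replicate 1 (exact interval 1.07 to 1.11) and 1.20 in replicate 2 (1.17 to 1.22). Without Mir92-1 and Mir19b-1, whose counts leave out reads shared with the X chromosome, this ratio was 0.856 and 1.08. Which cluster was larger thus depended on those genes in replicate 1. Both belong to the miR-17-92 cluster, so its sum and the ratio may be too low, by an amount that was not measured. With 2 libraries the smallest p of a two-sided exact permutation test is 0.5, and none is given.

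The make-up of each cluster differed more between the libraries than its sum. In the miR-106b-25 cluster, Mir93 made up 65.6% of the counts in replicate 1 (65.0 to 66.2%) and 88.6% in replicate 2 (88.1 to 89.2%). Mir106b made up 25.8% (25.3 to 26.4%) and 6.74% (6.33 to 7.18%), and Mir25 8.60% (8.25 to 8.96%) and 4.62% (4.28 to 4.99%). In the miR-17-92 cluster, Mir17 made up 51.3% (50.7 to 51.9%) and 57.9% (57.1 to 58.7%), and Mir20a 22.8% (22.3 to 23.3%) and 29.4% (28.7 to 30.1%). Mir92-1 made up 21.6% (21.1 to 22.1%) and 9.49% (9.04 to 9.96%), and Mir18 4.17% (3.94 to 4.42%) and 3.17% (2.91 to 3.45%). None of these intervals overlapped between the libraries, and such shares do not depend on the scaling of the libraries.

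**Figure D2:**
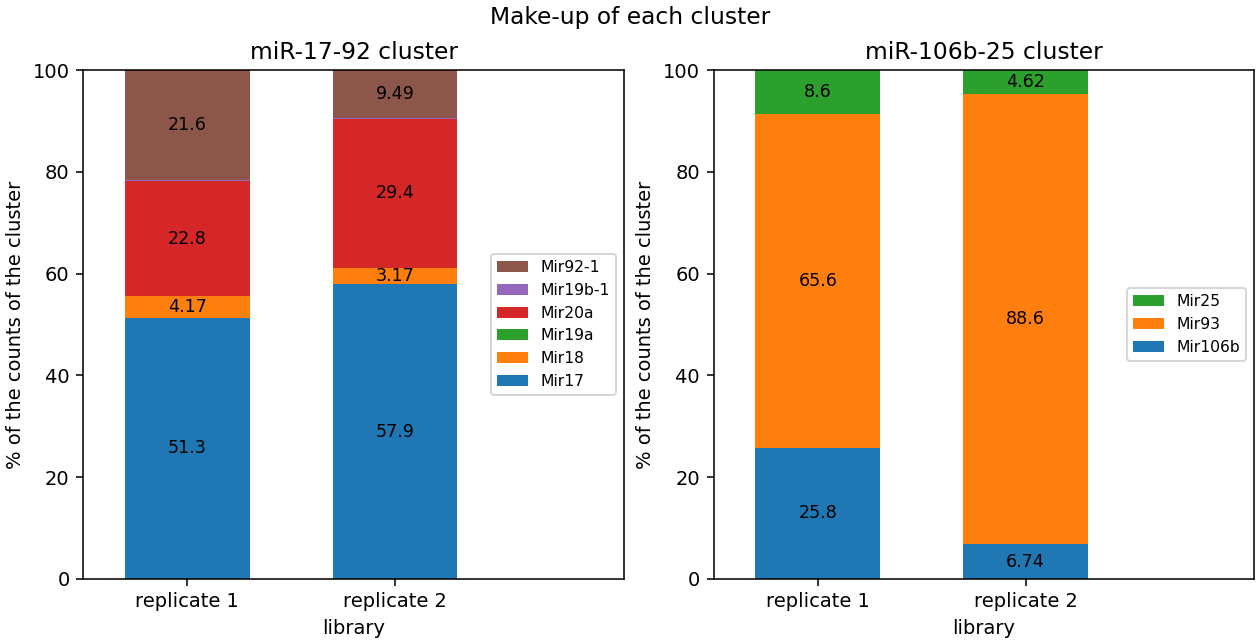
Share of each gene in the counts of its own cluster, in percent, for replicate 1 (left bar) and replicate 2 (right bar). Mir93 takes 65.6% of its cluster in replicate 1 and 88.6% in replicate 2, and Mir92-1 takes 21.6% and 9.49% of the other cluster. Shares under 2.5% are drawn without a number.

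Against counting error, 8 of the 9 genes differed between the libraries, with 4 toward each replicate. The test was an exact two-sided binomial test with TMM library sizes and Benjamini-Hochberg adjustment over the 434 genes whose counts in the 2 libraries summed to 10 or more. It called 58.5% of those 434 genes, 30.2% toward replicate 1 and 28.3% toward replicate 2. It compares these 2 libraries, not conditions. All 9 genes reached the 10 counts, Mir19a with exactly 10, and 7 reached 10 counts in both libraries. On the log2 scale, replicate 1 over replicate 2 had a median of 0.01 for the 9 genes and 0.08 for the 434.

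Mir106b differed most among the abundant genes, 3.20-fold higher in replicate 1 (log2 ratio 1.68, exact binomial test, adjusted p = 5.83e-304). Mir92-1 was 1.74-fold higher in replicate 1 (log2 ratio 0.80, adjusted p = 1.14e-88) and Mir25 1.56-fold higher (log2 ratio 0.64, adjusted p = 8.81e-23). Toward replicate 2, the size was 1.69-fold for Mir20a (log2 ratio -0.75, adjusted p = 1.49e-152), 1.62-fold for Mir93 (-0.69, adjusted p below 2.23e-308) and 1.48-fold for Mir17 (-0.56, adjusted p = 2.02e-176). The median size over the 434 genes, in either direction, was 1.50-fold, and 12.0% of them had a larger size than Mir106b. Mir18 did not pass (log2 ratio 0.01, adjusted p = 0.967).

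The miR-19 genes passed on few counts. Mir19b-1 was 3.87-fold higher in replicate 1 (36 against 4 counts, adjusted p = 0.00598) and Mir19a 4.36-fold higher in replicate 2 (3 against 7 counts, adjusted p = 0.0243), and the call of Mir19a was lost with total counts (adjusted p = 0.0655) or without a filter on low counts (adjusted p = 0.0594). With the spread of all genes as the error, in edgeR's exact test with a common dispersion, 0 of the 9 genes were called, against 0.00% of the 434. At an unadjusted p under 0.05 that test gave 0 of the 9 genes and 24 of the 434. Its smallest p among the 9 was 0.0596, for Mir106b. Except for Mir19a, whose call depended on the setting, the differences of the called genes were thus larger than counting error. The second test cannot decide whether they exceeded the spread of miRNA genes in general. Its dispersion was estimated from these same 2 libraries and contains the differences tested. Even Mir122, 8.33-fold higher in replicate 1, did not pass it (edgeR's exact test, adjusted p = 0.239).

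**Figure D3:**
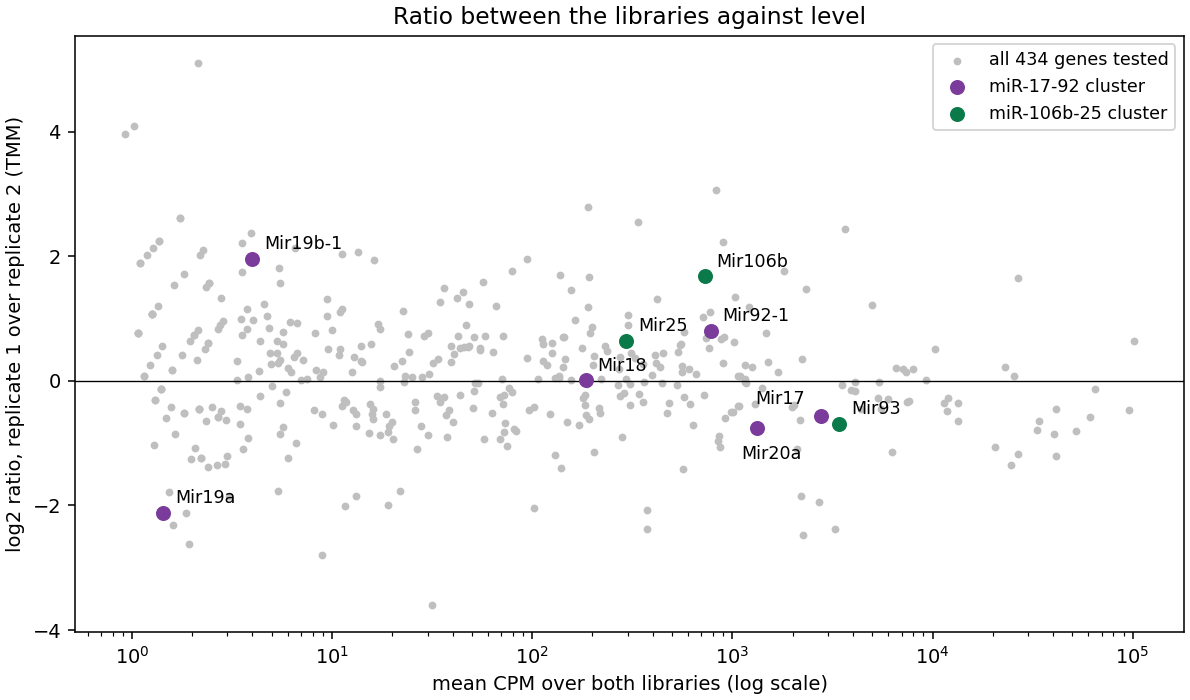
Log2 ratio of replicate 1 over replicate 2 (TMM scaling) against mean CPM on a log scale, for the 434 genes tested in grey and the 9 cluster genes in colour. Mir106b at 1.68 stands above Mir92-1 at 0.80 and Mir25 at 0.64, Mir17, Mir93 and Mir20a lie between -0.75 and -0.56, and the miR-19 genes lie at both edges at low level.

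Within the miR-17 family, 5 of the 6 genes tested, from 3 chromosomes, had like ratios between the libraries, and Mir106b stood apart. Mir17 and Mir20a of chromosome 14 and Mir93 of chromosome 5 lay between -0.75 and -0.56 on the log2 scale, and Mir106a (-0.62) and Mir20b (-0.72) of the X chromosome lay in the same range. Mir106b, with the same seed, was at 1.68. Of the 434 genes tested, 28.3% were called toward replicate 2 by the exact binomial test. A larger size than that of Mir20a, the most changed of the 5 genes, was seen in 37.8% of the 434, in either direction. The count ratio of Mir17 to Mir93 was 0.855 in replicate 1 (exact interval 0.836 to 0.875) and 0.781 in replicate 2 (0.760 to 0.803), with intervals that did not overlap. That of Mir20a to Mir20b was 68.0 (55.2 to 84.8) and 69.4 (54.5 to 89.7), and that of Mir17 to Mir106a was 177 (142 to 225) and 170 (130 to 226), with intervals that overlapped in both cases. Mir106a and Mir20b had 77 and 89 counts in replicate 1 and 54 and 67 in replicate 2, so a difference of the size of their intervals was not detectable. Their own calls by the exact binomial test were lost with total counts. The mature form of Mir106a differs from miR-17-5p by 1 base, U10A, and that of Mir20b by U10C and C12U. How such reads were placed is not known. Whether the counts of Mir106a and Mir20b hold reads from the far more abundant relatives was not tested. The 2 X-linked genes may thus not be separate evidence of like ratios.

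In the miR-25/92 family, Mir92-1 of chromosome 14 and Mir25 of chromosome 5 were both higher in replicate 1. Their count ratio was 2.74 in replicate 1 (2.61 to 2.89) and 2.46 in replicate 2 (2.23 to 2.70). The ratio of Mir92-1 to Mir17, the first hairpin of the same transcript, was 0.421 (0.408 to 0.434) and 0.164 (0.155 to 0.173). The ratio of Mir25 to Mir93 was likewise 0.131 (0.125 to 0.137) and 0.0521 (0.0480 to 0.0566). The count of Mir92-1 leaves out reads inside the stretch shared with Mir92-2. Ratios with Mir92-1 are thus not ratios of miR-92a-3p. Of the other genes with this seed, Mir363 was at 0.64, Mir92-2 at 0.34 and Mir92b at 0.15 on the log2 scale and did not pass with TMM sizes (Mir92-2 passed under 5 other settings), while Mir32 was 1.77-fold higher in replicate 2 (log2 ratio -0.83, exact binomial test, adjusted p = 6.32e-11). Genes with this seed thus lay on both sides of 0. The grouping by seed was made with earlier results of these data known and carries no test of its own.

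The GC content of the hairpins also differed between the clusters. It ran from 43.7 to 47.5% in the miR-17-92 cluster and from 55.7 to 63.1% in the miR-106b-25 cluster, and the mature forms ran from 34.8% in miR-19a-3p to 57.1% in miR-92a-3p. Over 284 genes whose counts summed to 100 or more, the log2 ratio was higher at higher hairpin GC content (Spearman's rho 0.348, across genes of the same 2 libraries, described without a test). Mir93, at 55.7%, went against that trend, and Mir106b, at 57.3%, exceeded it. With a linear trend in GC content removed, the log2 ratio was -0.85 for Mir93, -0.62 for Mir20a, -0.60 for Mir20b, and -0.41 for both Mir17 and Mir106a, a wider range than without the correction. Mir106b was then at 1.47 and Mir92-1 at 0.88, while Mir25 was at 0.26 and Mir32 at -0.48. By the exact binomial test on these corrected ratios, Mir19a (adjusted p = 0.0642) and Mir106a (adjusted p = 0.172) lost their calls, and Mir18 (adjusted p = 0.0177) and Mir92-2 (adjusted p = 0.0357) were called toward replicate 1.

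**Figure D4:**
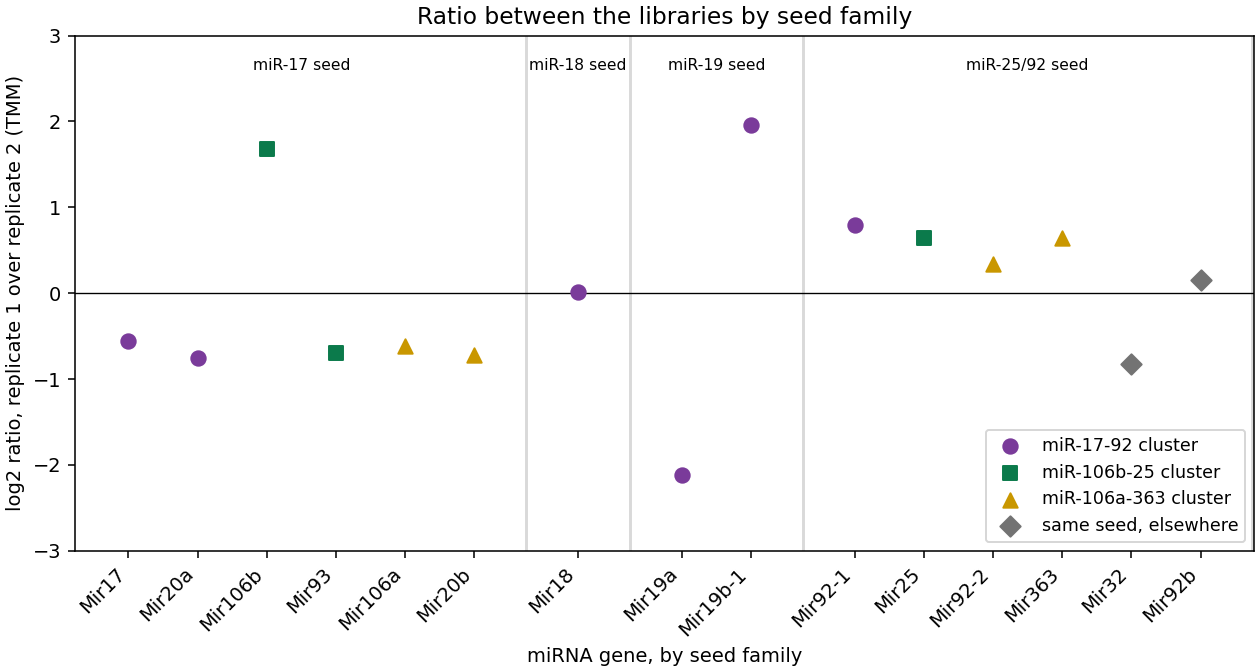
Log2 ratio of replicate 1 over replicate 2 (TMM scaling) for every gene with a member's seed that had at least 10 counts over both libraries, grouped by seed family and marked by cluster. In the miR-17 family 5 genes lie between -0.75 and -0.56 and Mir106b lies at 1.68.

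Among annotated genes whose mature form has the seed, the 9 genes held most of the counts for each of the 4 seeds. For the miR-17 seed they held 99.6% of the counts over all annotated genes with that seed in replicate 1 (99.5 to 99.7%) and 99.5% in replicate 2 (99.5 to 99.6%). The miR-17-92 cluster supplied 46.8% (46.3 to 47.3%) and 52.0% (51.4 to 52.6%) of this family, and the miR-106b-25 cluster 52.8% (52.3 to 53.3%) and 47.5% (46.9 to 48.1%). For the miR-25/92 seed the 9 genes held 92.3% (91.7 to 92.8%) and 84.8% (83.3 to 86.1%), and Mir32 was the highest of the other genes, with 58.9 and 84.8 CPM. Family totals in CPM were 7768 in replicate 1 and 8730 in replicate 2 for the members with the miR-17 seed and 1450 and 698 for those with the miR-25/92 seed. Totals were 205 and 166 CPM for miR-18 and 7.23 and 3.63 CPM for miR-19. The counts do not separate the arms of a hairpin, so they are not counts of reads that carry the seed. For the miR-25/92 and miR-19 seeds, totals and shares also leave out reads inside the stretches shared with the X chromosome. Those totals and shares are thus not levels of these families.

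The X-linked miR-106a-363 cluster was low throughout. Its 6 genes together had 80.8 CPM in replicate 1 and 70.6 CPM in replicate 2, against 4925 and 5227 CPM for the 6 genes of the miR-17-92 cluster. Mir92-2 led with 41.3 and 26.4 CPM, ahead of Mir20b with 16.5 and 22.1, Mir106a with 14.3 and 17.8 and Mir363 with 7.04 and 3.63. Mir18b had 5 and 2 counts. Mir19b-2 had 4 counts in replicate 1 and 0 in replicate 2, which allows up to 0.990 CPM there, taken as 3 counts. Reads inside the stretch that Mir19b-1 and Mir19b-2 share are in the count of neither gene. Mir92-1 exceeded Mir92-2 by 25.7-fold in replicate 1 (22.5 to 29.5) and by 18.8-fold in replicate 2 (15.0 to 23.8) among reads placed at 1 locus. Of the genes elsewhere with a member's seed, Mir367 and Mir6383 had 0 counts in both libraries, so levels of up to 3 counts are allowed, or 0.556 CPM in replicate 1 and 0.990 in replicate 2.

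In 4 of the 5 neighbouring pairs of these clusters, the count ratio changed between the libraries by more than in the median pair of neighbours, and in 3 of them by over 2-fold. Across the annotation, 98 pairs of neighbouring miRNA genes lay within 10 kb on 1 strand with at least 100 counts each over both libraries. The ratio within a pair changed between the libraries by a median of 1.64-fold, and by at least 2-fold in 34.7% of pairs. Mir106b over Mir93 was 0.393 in replicate 1 (0.382 to 0.405) and 0.0761 in replicate 2 (0.0710 to 0.0814), a change of 5.17-fold that ranked 4 of 98. The change was 2.93-fold between Mir20a and Mir92-1 (rank 13) and 2.51-fold between Mir93 and Mir25 (rank 19). It was 1.70-fold between Mir18 and Mir20a (rank 46) and 1.48-fold between Mir17 and Mir18 (rank 55). Mir19a and Mir19b-1 had too few counts to enter these pairs. The pairs of 1 cluster share genes and are not independent.

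**Figure D5:**
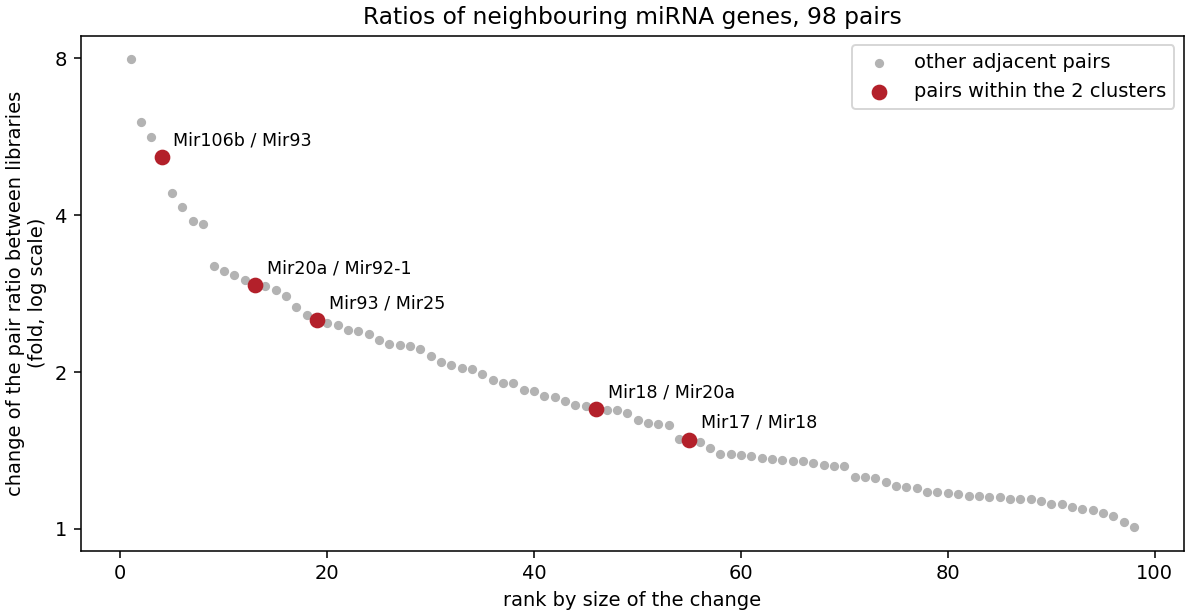
Change between the libraries in the count ratio of neighbouring miRNA genes, as fold on a log scale, for 98 pairs ordered by size. The pair of Mir106b and Mir93 ranks 4 with 5.17-fold, and the pair of Mir17 and Mir18 ranks 55 with 1.48-fold.

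Among genes outside the lists, those nearest to Mir17 in log2(CPM + 1) over the 2 libraries were Mir100, with 1932 CPM in replicate 1 and 2430 in replicate 2, and Mir541, with 3789 and 3233. Their distances were 0.50 and 0.59 log2 units. Nearest to Mir93 were Mir541 (0.44) and Mir674 (0.48), the second with 4123 and 3696 CPM. Genes of the lists were left out of this search, among them the endocrine gene Mir7b. At 2569 CPM in replicate 1 and 3010 in replicate 2, Mir7b was closer to Mir17 (2528 and 3027 CPM) than Mir100 and Mir541 were. With 2 libraries this likeness is mostly one of level.

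A list of miRNAs known to restrain the cell cycle was set beside the clusters, the Mir15, Mir16, Mir195a and Mir497 genes, whose miRNAs target cyclins, and the Mir34 genes, which p53 induces. The sum of these 9 genes was 16235 CPM in replicate 1 but 7751 in replicate 2, against 9431 and 9598 CPM for the 9 cluster genes. By the exact binomial test, 7 of the 9 were higher in replicate 1 and 2 in replicate 2, where 30.2% and 28.3% of all genes tested were called in those directions. The median log2 ratio was 0.63 beside the 0.08 of all genes tested. With edgeR's common dispersion, which contains the differences tested, 0 of the 9 were called, and the smallest adjusted p was 0.396, for Mir195a. Mir195a had 6372 and 959 CPM and Mir15a 3613 and 1058 CPM, while Mir34c had 1123 and 3278 CPM.

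Markers of other cells also differed between the libraries by the exact binomial test. It called 58.5% of all genes tested, 30.2% toward replicate 1 and 28.3% toward replicate 2. With edgeR's common dispersion, which contains the differences tested, 0 of the marker genes were called. The white-cell list (Mir142, Mir223, Mir150, Mir155 and Mir342) had a sum of 1928 CPM in replicate 1 but 2617 in replicate 2. All 5 of its genes were called higher in replicate 2. On the CPM scale, however, Mir342 was at 583 in replicate 1 and 568 in replicate 2, and Mir155 at 354 and 364. The red-cell list (Mir451a, Mir144 and Mir486) summed to 1210 and 576 CPM, with 3 of 3 called higher in replicate 1. The hepatocyte gene Mir122 had 1503 and 146 CPM, the epidermal gene Mir203 822 and 3691 CPM, and the endothelial gene Mir126a 133209 and 69285 CPM. Smooth-muscle and fibroblast genes (Mir143, Mir145a, Mir214 and Mir199a-2) summed to 31775 and 59505 CPM, with 2 of 4 called higher in replicate 2 and 1 in replicate 1. Most of that sum was Mir143, at 28989 and 53980 CPM. The smooth-muscle genes Mir143 and Mir145a (1251 and 5257 CPM) were those called higher in replicate 2. The fibroblast gene Mir214 was called higher in replicate 1 (1528 and 264 CPM), and Mir199a-2 was not called. The muscle gene Mir206 had 474 and 494 CPM, and Mir133b 1 and 0 counts. The endocrine list (Mir375, Mir7b and Mir137) summed to 31926 and 25758 CPM, most of it Mir375, while Mir7b and Mir137 were called higher in replicate 2 (log2 ratios -0.53 and -0.51). In bulk tissue, fewer cells of a type and less RNA per cell cannot be told apart, and the part of these cells in the levels of the clusters was not tested.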

How the data were processed

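MicroRNA-seq libraries of total RNA from 2 adrenal samples were used. The authors deposited raw read counts per miRNA gene, without strand, sense and antisense, on mm10 with GENCODE M21, per the notes deposited with each library. The columns carry no names. Their gene, no-feature and ambiguous reads summed to the same total, and at the 9 genes the column read as antisense held 0 reads. For the aligner, counter and trimming, no source used here gives a name. The 4 entries that name no gene, among them reads mapped to several places (28.5% of reads in replicate 1 and 30.6% in replicate 2), made up 61.4% and 59.8% and were left out of library sizes.

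All 2202 identifiers matched GENCODE M21. The count test was an exact two-sided binomial test between the libraries (scipy 1.17.1), with TMM sizes from genes with at least 10 counts (edgeR 4.0.16, R 4.3.3), a prior of 0.5 counts for ratios and a threshold of 0.05. With 1 group, edgeR's quasi-likelihood test could not be run, and its exact test with a common dispersion served as the other error. That dispersion came from the same 2 libraries and contains the differences tested. Both steps were run on simulated data with known changes. Those set for edgeR's test were far larger than the differences reported here, so its power at such sizes was not tested. Alternatives included DESeq2 1.42.0 size factors. Named genes were the 9 members, the miR-106a-363 genes, other genes with a member's seed, up to 3 genes of the cell-cycle list, the cell markers and, for the leading member of each cluster, the 2 nearest genes. Members and lists were chosen with earlier results of these data known. Figures came from matplotlib 3.10.9 and tables from pandas 2.3.3, with numpy 2.4.6 under Python 3.11.15. The p-values measure only the spread or counting error of these samples.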

Additional observations from a re-analysis of the deposited data

How the results depend on the processing

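Scaling to total counts moved the log2 ratios by 0.30 toward replicate 1, and by slightly less in genes with few counts. The number of the 9 genes called between the libraries was 8 with total counts or DESeq2 size factors, 7 without a filter on low counts or with replicate 1 thinned to the depth of replicate 2, and 6 with a minimum of 100 counts. It was 3 when a 2-fold size was also required and 0 with edgeR's common dispersion, whose count stayed at 0 under the 4 other settings tried. Mir19a was not tested after thinning, and neither Mir19a nor Mir19b-1 was tested with the minimum of 100 counts. In those 2 settings every gene of the 8 that was still tested kept its call. Mir18 turned to a log2 ratio of -0.064 with DESeq2 size factors and was called toward replicate 1 with total counts. Mir92b turned to -0.35 with the GC trend removed, an alternative chosen after seeing the data. By the exact binomial test, total counts removed the call of Mir20b (adjusted p = 0.117). Mir106a lost its call, and Mir92-2 was called toward replicate 1, with total counts, without a filter, with a minimum of 100 counts, after thinning and with the GC trend removed (adjusted p from 0.0616 to 0.299 for Mir106a and from 0.00101 to 0.0412 for Mir92-2). Directions of the 9 genes held in all but 1 of 78 recomputed ratios. Settings that change only the prior or the scaling move the ratios too little to turn any of these genes but Mir18.

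The cluster shares depend on what they are shares of. That of the miR-17-92 cluster was 0.632% of counts without strand, 0.565% without the most abundant miRNA gene and 0.290% with reads mapped to several places in the total, and that of the miR-106b-25 cluster was 0.554%, 0.495% and 0.254%. The mean ratio of the cluster sums, 1.14, was 0.969 without the genes that share 20 bases with another locus, by the removal of Mir92-1 and Mir19b-1, and 2.99 without Mir17 and Mir93 (1.55 in replicate 1 and 4.43 in replicate 2). Leaving out each library gave 0.492 to 0.523% for the miR-17-92 cluster, 0.437 to 0.451% for the miR-106b-25 cluster and 1.09 to 1.20 for the ratio. Counting all annotated genes with a seed moved no family share by more than its SD. No paired analysis was possible because there is 1 group. Depth limits Mir19a, Mir19b-1 and the X-linked genes, which rest on few counts.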
